A study of Homo sapiens with 16 samples.

Results

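The clustered protocadherins are neighbouring genes on human chromosome 5 that lie in 3 groups, alpha, beta and gamma, in this order. They were examined as the 37 bins of 20 kb that cover chromosome 5 from 140.16 to 140.90 Mb of build hg19 (chr5:140160001-140900000), together with the contacts of these bins within 139 to 142 Mb. All 37 bins were measured in every library, of 137198 such bins on chromosomes 1 to 22 and X, as were 149 of the 150 bins of the surrounding interval. The members were fixed by position and not by a measured value. Alpha was taken as 12 bins (140.16 to 140.40 Mb), beta as 11 bins (140.42 to 140.64 Mb) and gamma as 10 bins (140.70 to 140.90 Mb), and the other 4 bins lie between them. Bins are numbered 1 to 37 from the alpha end. Gene positions in hg19 are given to the bin, from general knowledge of that map, because no hg19 annotation was used here.

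Protocadherins are adhesion proteins of the cell surface. Each alpha and gamma gene has its own first exon, with its own promoter, which is spliced to constant exons at the end of its group, whereas each beta gene is a single exon. Neurons choose a few of these promoters per cell, and the choice is known to depend on the insulator protein CTCF and on looping between promoters and distant enhancers. One such enhancer, HS5-1, is known to lie between the alpha constant exons and PCDHB1, and was taken to be in bin 13 on the same general knowledge of the map, and other enhancers lie at and beyond the end of gamma. PCDHA1 and PCDHGA1 open their groups, PCDHAC2 and PCDHGC5 are C-type genes at the end of theirs, and PCDHB1 and PCDHB15 bound the beta genes.

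All groups were K562 cells, an established human leukaemia line, untreated except for the assay. In Hi-C, cut DNA ends are ligated to ends close by, and each ligated pair is sequenced and counted as 1 contact. Here formaldehyde-fixed nuclei were cut with the restriction enzyme HindIII for 0.25, 1, 3 or 12 h before the ends were joined, and the series asks which boundaries between chromatin domains are most accessible at short digestion. Each time had 2 libraries, and the labels do not say whether these came from separate cultures, so p-values measure the spread between these libraries, which may be technical.

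Expression was not measured, so nothing here says which protocadherins were transcribed. The second sequencing run, used throughout, gave 62777251 to 176412222 contacts per library, and the 12 h libraries were the deepest. The share of contacts that joined a bin to itself fell from 20.4% and 24.2% at 0.25 h to 11.7% and 11.5% at 12 h. All 8 libraries held the contact between BCR and ABL1 that K562 cells are known for, with 851 to 4404 contacts, at least 4979 times the mean between chromosomes 9 and 22.

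The promoters are shown first because CTCF is known to bind at many of them, and their letters differ between the 3 groups. RefSeq lists 15 alpha, 16 beta and 22 gamma protein-coding genes here, and a promoter sequence (build GRCh38.p14, 250 bases before the start site) was matched for 47 of the 53, with none for PCDHGC5 among the listed genes. The stretches below are all on the + strand, in GRCh38.p14 positions that do not correspond to the hg19 bins. Capitals mark a motif that several promoters of a group share, around the letters CGCT.
PCDHA1 (alpha, chr5:140786085-140786114): cattggccacatGATGTCGCTgtacaccac
PCDHA4 (alpha, chr5:140806978-140807007): ttggagccacatGATGTCGCTctttaccac
PCDHA8 (alpha, chr5:140841129-140841158): ttgaagccacatGATGTCGCTgtctaccaa
PCDHB2 (beta, chr5:141094543-141094572): gaagagacgcggGGTGGCGCTgcagcctta
PCDHB15 (beta, chr5:141245313-141245342): aagacaacgcatGGTGGCGCTgcaggctaa
PCDHGA1 (gamma, chr5:141330403-141330432): ttaggactgtggGCGCCGCTGttcactaat
PCDHGA10 (gamma, chr5:141412931-141412960): ttaggactctgaGCGCCGCTGttcacctac
PCDHAC2 (alpha, C-type, chr5:140966306-140966330): gttcctgcggtcCGCTgggatccgg
PCDHB1 (beta, chr5:141051257-141051281): tattaatacattCGCTagactgggg

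These motifs were chosen after the promoters were read, and were searched on both strands. GATGTCGCT was present in 9 of 13 alpha promoters, in no beta or gamma promoter, and in 0.0854% of all 35116 promoters. GGTGGCGCT was present in 12 of 14 beta promoters and in 0.410% of all promoters. GCGCCGCTG was present in 11 of 25 gamma entries, which belong to 20 genes, and in 0.968% of all. Of these motifs, PCDHAC2 and PCDHB1 held only the bare letters CGCT, which are part of each longer motif and were present in 50 of the 52 clustered entries and in 64.8% of all promoters. The HindIII site AAGCTT was present in none of the 52 clustered entries, against 5.02% of all promoters.

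The cluster was a dense block of contacts with a sharp edge before alpha. Observed contacts were divided by those expected at the same distance on chromosome 5, after the deposited balancing, which scales every bin to the same total. Between bins at least 40 kb apart, the whole cluster had 1.41 ± 0.00845 times the expected contacts at 0.25 h (mean ± SD, n = 2) and 1.44 ± 0.00439 at 12 h. The 8 libraries ranged from 1.40 to 1.44, on 3001 to 12546 contacts each. Of 3686 windows of the same 740 kb size across the genome, 99.4% had a lower value. Their median was 0.984.

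**Figure D1:**
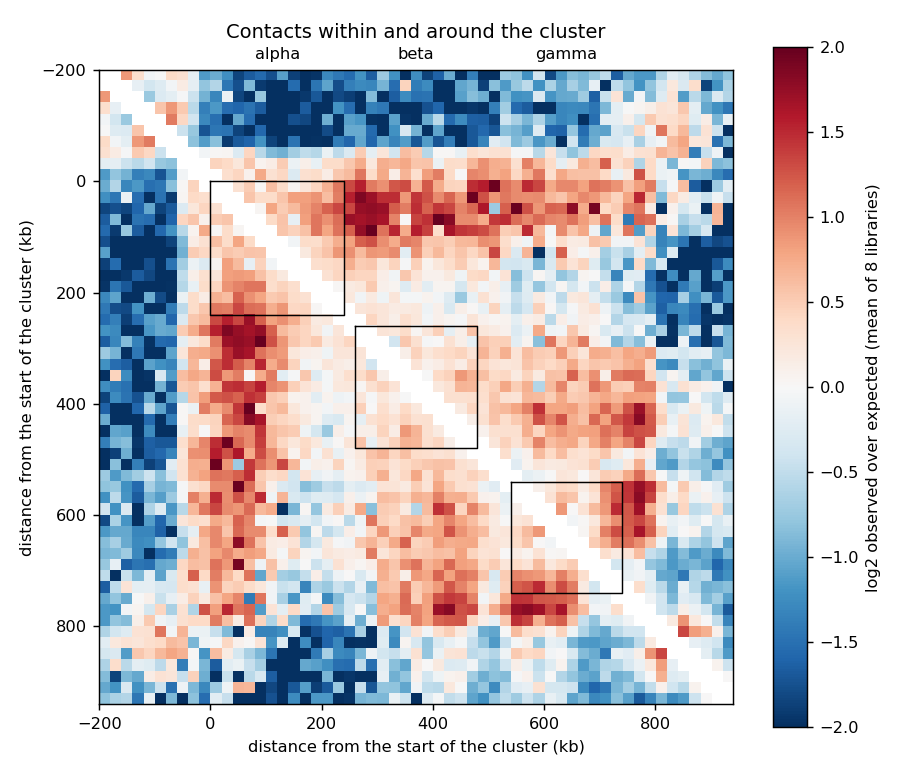
Contacts between 20 kb bins from 200 kb before to 200 kb after the cluster, as log2 of observed over expected, mean of 8 libraries, with colours ending at 2 and -2. Both axes give the distance from the start of the cluster in kb, boxes outline the alpha, beta and gamma groups, and white marks pairs under 40 kb apart. The cluster forms a red block with a blue stretch before it, deepest red where the first bins of alpha meet the bins just after alpha.

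Across the boundary before alpha, contacts were few. With the 1160 kb before it the cluster had 0.524 ± 0.0305 times the expected contacts at 0.25 h and 0.485 ± 0.00364 at 12 h, and 0.545% of 3668 windows had a lower value. With the 1100 kb after it the ratio was 0.766 ± 0.00693 at 0.25 h and 0.773 ± 0.0126 at 12 h (where 0% of windows rose and 0.0816% fell by the limma test described below), and 15.5% of 3675 windows were lower. The more depleted side was the one towards ZMAT2 and HARS2, the nearest protein-coding genes before PCDHA1 in RefSeq order, and the less depleted side was the one towards DIAPH1 and HDAC3, the nearest after PCDHGC5.

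The edge did not coincide with the first alpha gene. The 3 bins just before the cluster still had 1.23 times the expected contacts with it (range 1.11 to 1.31), whereas the 5 bins before those had 0.356 (0.317 to 0.415). On the other side the 3 bins after gamma had 1.58 (1.52 to 1.67) and the 5 bins after those 0.714 (0.657 to 0.771). These stretches were chosen after the map was seen and are given as description.

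The insulation score gives the position of these edges. This score is the log2 of the mean balanced contact frequency in a square of 200 kb on each side across a bin, over the mean of the chromosome, so that a bin few contacts span scores low. The lowest bin before the cluster was at 140.10 to 140.12 Mb (chr5:140100001-140120000). In the order of digestion time, its scores were -1.32 and -1.27, -1.26 and -1.37, -1.36 and -1.27, then -1.04 and -1.31 in the 12 h libraries. Only 0.342% of bins had a lower mean score, and the lowest of its neighbourhood was within 1 bin of it in 8 of 8 libraries. The first 12 h library was the highest of the 8, and the times overlapped.

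After the cluster, the lowest bin lay at 141.02 to 141.04 Mb (chr5:141020001-141040000), 120 kb beyond the end of gamma. Its scores ranged from -0.858 to -0.595, and 4.50% of bins scored lower. It was the lowest bin there in 7 of 8 libraries. A second trough 4 bins nearer to gamma had a mean of -0.603, and in the second 0.25 h library it was the deeper one (-0.727 against -0.595). The span between both minima, taken on the means, was 900 kb.

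Inside the cluster 1 bin had the lowest mean score within 5 bins on each side, and it was shallow. It lay at 140.50 to 140.52 Mb (chr5:140500001-140520000, bin 18), among the beta genes with the starts of PCDHB4 and PCDHB5. Its score averaged 0.163, ranged from 0.00609 to 0.267, and was above that of 74.4% of bins, so even there more contacts crossed than at most bins. Its position was less fixed, with the lowest bin within 1 bin of it in 6 of 8 libraries. The peaks on either side were bin 9 in alpha at 0.939 (0.884 to 1.06) and bin 31 in gamma at 0.737 (0.653 to 0.822). The bins of the 6 listed genes scored -0.646 for PCDHA1, which lies on the slope of the boundary, 0.929 for PCDHAC2, 0.501 for PCDHB1, 0.527 for PCDHB15, 0.582 for PCDHGA1 and 0.395 for PCDHGC5 (means of 8 libraries).

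**Figure D2:**
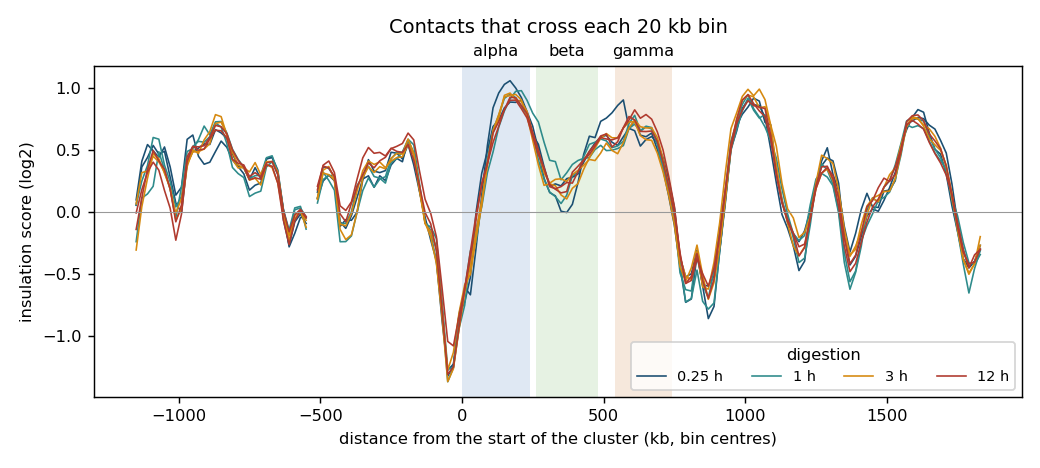
Insulation score of each 20 kb bin (log2, y axis) against the distance from the start of the cluster in kb, 1 line per library, coloured by digestion time, with a gap where a bin had no score. The lines fall to about -1.3 before alpha, peak in alpha and gamma with a dip in beta, and fall again after gamma at all 4 times.

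Digestion time did not change this profile detectably in the balanced signal. With limma over 134511 bins and Benjamini-Hochberg adjustment, 0 bins of the genome (0% higher and 0% lower) and 0 of 37 cluster bins passed between 12 h and 0.25 h. At an unadjusted p under 0.05 there were 10653 bins genome-wide and 3 in the cluster. The same counts of adjusted calls, 0 and 0, were found for 1 h against 0.25 h, 3 h against 1 h and 12 h against 3 h. Without balancing, 37 of 37 cluster bins scored higher at 12 h than at 0.25 h, where 26.4% of all bins rose and 18.2% fell.

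Within the block, contacts between neighbouring groups had the highest ratios. Alpha with beta came first, 1.66 (range over 8 libraries 1.58 to 1.87), and beta with gamma followed at 1.56 (1.45 to 1.73). Alpha with itself had 1.43 (1.21 to 1.56), gamma with itself 1.40 (1.29 to 1.49), alpha with gamma 1.29 (1.07 to 1.44) and beta with itself 1.21 (1.16 to 1.25). Neighbours in this order overlapped in range, so their order is not settled, while all 8 values for alpha with beta lay above all those for alpha with itself. Against windows of the same layout elsewhere, alpha with beta stood above 98.8%, the highest of the 6 pairs of groups, and alpha with gamma above 80.7%, the lowest. By this rank beta with gamma, at 95.8%, came after alpha with itself at 97.8% and gamma with itself at 97.0%. Beta with itself was at 89.4%.

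**Figure D3:**
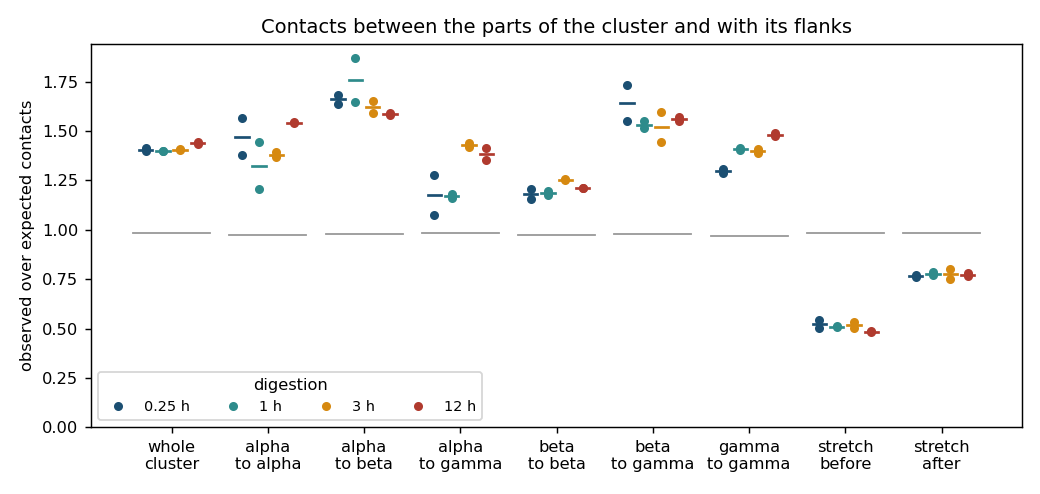
Observed over expected contacts (y axis, from 0) for the whole cluster, for each pair of groups, and for the cluster with the stretches before and after it. Each point is 1 library, short bars are means of 2, and grey lines are medians of all windows with the same layout. Every pair of groups lies above its grey line, and both flanks lie below theirs.

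In the balanced signal, no pair of groups changed with digestion time after adjustment. Gamma with itself had 1.30 ± 0.0119 at 0.25 h and 1.48 ± 0.0110 at 12 h. The log2 difference was 0.19 (SE 0.0585), with an adjusted p of 0.490 by limma over 3693 windows, of which 0% passed in either direction. Alpha with gamma had 1.18 ± 0.144 and 1.38 ± 0.0402, a log2 difference of 0.24 (SE 0.0831, limma adjusted p = 0.743). From 3 h to 12 h no pair of groups or flank passed either, with 0.0272% of windows falling after the cluster and 0.0273% before it. For the whole cluster the log2 difference was 0.03 (SE 0.0282, limma adjusted p = 0.554), where 0.244% of windows rose and 0.326% fell. Contacts with the stretch before the cluster differed by -0.11 (SE 0.0423, limma adjusted p = 0.234), where 0% of windows rose and 0.164% fell. Without the deposited balancing its direction turned, to 0.10 (limma adjusted p = 0.0870). Likewise without balancing, contacts inside the cluster rose by 0.24 on the log2 scale (limma adjusted p = 1.66e-05), where 37.5% of all windows rose and 29.98% fell.

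Within alpha, the first stretch took part most in the contacts with the other groups. Bins 1 to 5 hold the start sites of PCDHA1 to PCDHA12, the tandem variable exons. They had 2.61 times the expected contacts with beta (range 2.29 to 3.15), and the rest of alpha, which holds PCDHA13, PCDHAC1, PCDHAC2 and the constant exons, had 1.25 (1.19 to 1.31). With gamma the values were 1.93 (1.504 to 2.25) and 0.928 (0.822 to 0.9988). All 8 libraries showed this order with both groups, and the ranges did not overlap. Bins 3 to 5 were among the 4 cluster bins with the fewest contacts, which gives them large balancing factors. With contacts scaled by each bin's contacts with other bins in place of the balancing, the values with beta were 3.07 and 1.57. That scaling also gives large factors to bins with few contacts, so it cannot show whether such factors matter here. This split was chosen after the map was seen.

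Contacts of the listed genes show the same arrangement. The PCDHA1 bin had 2.93 times the expected contacts with the PCDHB1 bin (1.76 to 4.25 over 8 libraries, 2 to 21 contacts) and 2.77 with the PCDHB15 bin (1.16 to 5.17, 1 to 9 contacts). The PCDHAC2 bin, in contrast, had 1.16 with both the PCDHB1 bin (0.930 to 1.35) and the PCDHB15 bin (0.502 to 1.71), and 0.608 with the PCDHGA1 bin (0.244 to 0.910). PCDHB15 with PCDHGC5 had 2.01 (1.35 to 2.86) and PCDHGA1 with PCDHGC5 1.96 (0.998 to 2.58). The remaining 8 of these 15 pairs averaged between 0.809 and 2.04, and some had no contact at all in a library.

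The bins at the outer ends had most of their contacts on the inner side. Over balanced contacts from 40 kb to 1 Mb on each side, the PCDHA1 bin had 2.34-fold more contacts towards the cluster than away from it (log2 ratio 0.845 to 1.605 over 8 libraries). The PCDHGC5 bin had 2.35-fold more towards the cluster (log2 ratio of the gamma side over the alpha side -1.67 to -0.88). Neither range reached 0. For PCDHAC2 (-0.26 to 0.07) and PCDHB15 (-0.24 to 0.33) the ranges included 0, so neither side was favoured in balanced contacts beyond the spread of libraries. In contacts before balancing, the range was higher on the gamma side, for PCDHAC2 210 to 838 per library against 139 to 524, and for PCDHB15 103 to 519 against 75 to 385. PCDHB1 leaned to the alpha side (-0.72 to -0.02) and PCDHGA1 to the far side (0.16 to 0.52).

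Among the single pairs with the highest ratios, 2 joined bin 13 to alpha promoters, 2 joined the end of gamma to gamma and beta genes, and 1 joined a beta bin to the middle of gamma. Of 630 cluster pairs at least 40 kb apart, 241 had a mean of at least 10 contacts and could be examined. These passed the filter partly through being high, so the others are not shown to be low. The highest was bin 4 with bin 13 (chr5:140220001-140240000 and chr5:140400001-140420000), 180 kb apart. Bin 4 holds PCDHA8, PCDHA9 and PCDHA10, and the promoter of PCDHA8 is among those printed above. This pair held 10 and 4 contacts in the 0.25 h libraries, 10 and 4 after 1 h, 10 and 11 after 3 h, and 18 and 14 after 12 h. Relative to expected these were 3.42 and 3.67, 3.39 and 2.106, 3.00 and 4.29, and 3.52 and 3.14, in the same order. All 8 libraries were above 2-fold. Of the 51664 pairs at that distance in the genome with a mean of at least 10 contacts, 99.4% had a lower mean ratio. With a mean of 10.1 contacts, this pair lay just above the filter, which its high ratio helped it to pass. Its rank among filtered pairs is therefore description only.

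Bin 2, with PCDHA3 and PCDHA4, had 2.94 times the expected contacts with bin 13 (range 1.67 to 3.94, 5 to 26 contacts per library). Bin 1, with PCDHA1, had 2.51 with bin 13 (range 1.99 to 2.82), and is counted with bin 2 because pairs in adjoining bins were taken as 1. The other 3 of the 5 highest pairs under that rule were bin 32 with bin 37 at 2.47 (2.108 to 2.96), bin 22 with bin 32 at 2.40 (1.47 to 3.29) and bin 22 with bin 37 at 2.36 (1.502 to 2.95). Bin 32 holds PCDHGA9, PCDHGB6, PCDHGA10 and PCDHGB7, bin 22 holds PCDHB12 and PCDHB13, and bin 37 holds the end of the gamma constant exons. Among pairs at the same distance with a mean of at least 10 contacts, between 95.5% and 99.2% were lower than these 3. Bin 22 with bin 32 and bin 22 with bin 37 had means of 10.5 and 11.1 contacts, also just above the filter.

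Since bins 13 and 37 recurred, their full profiles are given, chosen after the values were seen. Bin 13 was above expectation with 11 of the 11 alpha bins that lie at least 40 kb away, 9 of which passed the filter. That is near the share of the cluster pairs examined, of which 218 of 241 were above expectation. Those 241 had a median ratio of 1.27, against 1.03 for all pairs examined in the genome. For bin 13 the means were between 2.28 and 3.32 in bins 1 to 5, and 1.13 and 1.16 in the nearer bins 10 and 11. Bin 5 had no contact with bin 13 in the second 0.25 h library. These ratios were not particular to bin 13: the means of bins 1 to 5 were between 2.93 and 3.64 with bin 14, and between 2.06 and 4.35 with bin 15. Bins 14 and 15 made fewer contacts than bin 13 (4.80 and 2.50 against 10.1 on the rate scale given below), so fewer of their pairs reached the filter of 10 contacts. Over whole groups bin 13 had 1.75 with alpha (1.55 to 1.87), 1.17 with beta (1.07 to 1.31) and 0.969 with gamma (0.778 to 1.202). It had 0.503 with the stretch before the cluster (0.441 to 0.551) and 0.446 with the stretch after it (0.397 to 0.529).

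Bin 37, the last bin of the cluster, had 1.68 with gamma (1.40 to 1.83), 1.64 with beta (1.45 to 1.86) and 0.954 with alpha (0.559 to 1.40). The range with beta did not overlap that with alpha, and the range with gamma met that with alpha at 1.40 as rounded. Ranges with gamma and beta overlapped each other. The block continued past the end of gamma: bins 28 to 32 had 2.37 times the expected contacts with bins 36 to 40 (2.07 to 2.59), and beta bins 20 to 24 had 2.16 with the same bins (1.86 to 2.47). The 2 parts of alpha differed here. Alpha bins 1 to 5 had 1.58 with bins 36 to 40 (0.992 to 2.114, on 14 to 58 contacts per library). Alpha bins 6 to 12 had 0.765 with them (0.599 to 0.917). Bins 1 to 5 had 3.10 with bins 13 to 15 (2.62 to 3.63), where bins 6 to 10 had 1.54 (1.33 to 1.75).

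**Figure D4:**
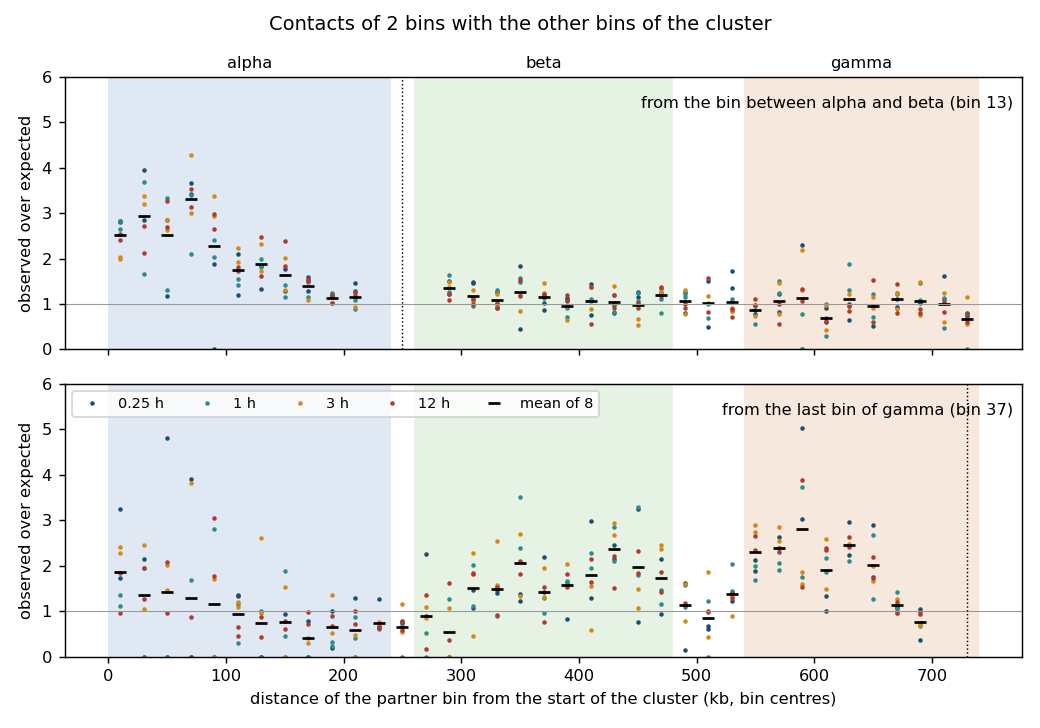
Observed over expected contacts (y axis) of bin 13, upper panel, and bin 37, lower panel, with every other bin of the cluster by its distance from the cluster's start in kb. Points are libraries coloured by digestion time, black bars are means of 8, and dotted lines mark the bin itself. Bin 13 is highest with the first 5 alpha bins, and bin 37 with bins of gamma and beta.

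These pairs did not change detectably with digestion. Between 12 h and 0.25 h, 0 of 241 cluster pairs passed by limma over 1100025 pairs, of which 0% rose and 6.36e-04% fell. Against 3 h no cluster pair passed either, where 0% rose and 9.09e-05% fell. At an unadjusted p under 0.05 there were 9 cluster pairs and 61194 in all. For bin 4 with bin 13 the log2 difference was -0.17 (SE 0.299, limma adjusted p = 0.970), and with 4 to 18 contacts per library only large changes could have been seen.

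The bins themselves differed widely in how many contacts they made. Contacts of a bin with all other bins are given as a rate per 1000000 contact ends that join different bins in a library, on which scale the mean of all bins is 7.29. The cluster averaged 5.93 and 5.74 per bin at 0.25 h, and 6.41 and 6.36 at 12 h. The lowest mean was 1.21 in bin 5 (PCDHA11 and PCDHA12) and the highest 12.7 in bin 34 in gamma, 10.5-fold higher. The median was 3.79 in alpha, 4.80 in beta and 7.83 in gamma.

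The 4 lowest bins all hold several variable exons, and other such bins ranged from 2.60 in bin 2 (PCDHA3 and PCDHA4) through 4.83 in bin 32 to 11.3 in bin 28 (PCDHGA1 and PCDHGA2). Bins 3, 4, 5 and 30, which hold PCDHA5 to PCDHA12 and, in bin 30, PCDHGA5, PCDHGB3 and PCDHGA6, had means of 1.21 to 1.48. The same 4 bins had no contact of the bin with itself in any library. Over all libraries their 1993 to 2386 contacts with other bins allow a self-contact share of at most 0.126% to 0.151% (3 counts of the total, counting error only). Genome-wide 2.35% of bins had none. The number of HindIII sites per bin was not tested.

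Most cluster bins of 20 kb made more contacts with other bins at 12 h than at 0.25 h, but in the shallower first run, in bins of 50 kb, 5 of 15 rose and 0 fell, where 17.04% of all bins rose and 10.7% fell. By limma with Benjamini-Hochberg adjustment, 35.0% of 137198 bins rose and 20.9% fell between these times, and 24 of 37 cluster bins rose and 2 fell. The median log2 difference was 0.18 in the cluster and 0.05 over all bins. With median-of-ratios scaling, which moves the median of all bins to 0.00, 19 cluster bins rose and 5 fell, where 27.7% of all bins rose and 28.1% fell. Without the second 0.25 h library 17 rose (31.7% of all bins), and without the first 12 h library 18 rose (28.6%). By group, 7 of 12 alpha bins, 8 of 11 beta bins, 5 of 10 gamma bins and 4 of the 4 bins between rose, and the falls were 1 in alpha and 1 in gamma.

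Among the listed genes, the PCDHB1 bin (chr5:140420001-140440000) rose most. It had 4.41 and 4.15 on this scale in the 0.25 h libraries, 4.62 and 4.40 after 1 h, 4.73 and 4.56 after 3 h, and 5.79 and 5.73 after 12 h. Both 12 h libraries were above all others, and the log2 difference from 0.25 h was 0.43 (SE 0.0559, limma adjusted p = 1.51e-06). The PCDHA1 bin (chr5:140160001-140180000) had 3.64 and 3.22, 3.83 and 3.315, 3.45 and 3.51, and 4.46 and 4.71 at the 4 times, a log2 difference of 0.42 (SE 0.0724, limma adjusted p = 3.99e-05). The PCDHGC5 bin (chr5:140860001-140880000) had 4.50 and 4.46, 4.58 and 4.56, 4.72 and 4.71, and 5.57 and 5.80, a log2 difference of 0.34 (SE 0.0531, limma adjusted p = 1.15e-05). In all 3 bins both 12 h values lay above the 6 earlier ones. A rise from 0.25 h to 12 h was not particular to them: by limma 24 of the 37 cluster bins rose, where 35.0% of all bins rose and 20.9% fell.

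The PCDHAC2 bin (chr5:140340001-140360000) rose less, from 11.03 and 10.5 to 11.9 and 11.9 (log2 difference 0.15, SE 0.0395, limma adjusted p = 0.00334). The PCDHB15 bin (chr5:140620001-140640000) went from 5.38 and 4.46 to 5.78 and 5.602 (log2 difference 0.22, SE 0.0719, limma adjusted p = 0.0139). This call was lost without the second 0.25 h library (limma adjusted p = 0.318) and without the first 12 h library (0.0839). The PCDHGA1 bin (chr5:140700001-140720000) was the listed gene that fell, from 10.9 and 12.0 to 10.6 and 10.7 (log2 difference -0.11, SE 0.0430, limma adjusted p = 0.0370). That call was lost without any 1 of the 3 h or 12 h libraries (0.0512 to 0.144) and without the second 0.25 h library (0.469). It was also lost with only the 0.25 h and 12 h libraries fitted (0.0765).

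The largest rise and the largest fall were in neighbouring bins between PCDHA13 and PCDHAC2. Bin 7 rose from 1.95 and 1.80 to 2.77 and 3.06 (log2 difference 0.63, SE 0.0818, limma adjusted p = 1.31e-06). Bin 8, with the start of PCDHAC1, fell from 4.15 and 4.05 to 3.64 and 3.23 (log2 difference -0.26, SE 0.0657, limma adjusted p = 0.00201), a call lost without the second 12 h library (-0.17, limma adjusted p = 0.0907). Neither 1 h against 0.25 h nor 3 h against 1 h gave a call, in the cluster or among all bins (0% each way), with 5 and 1 cluster bins at an unadjusted p under 0.05, as had 9.93% and 5.87% of all bins. For 12 h against 3 h, 16 cluster bins rose and 1 fell by limma, where 24.2% of all bins rose and 14.3% fell.

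**Figure D5:**
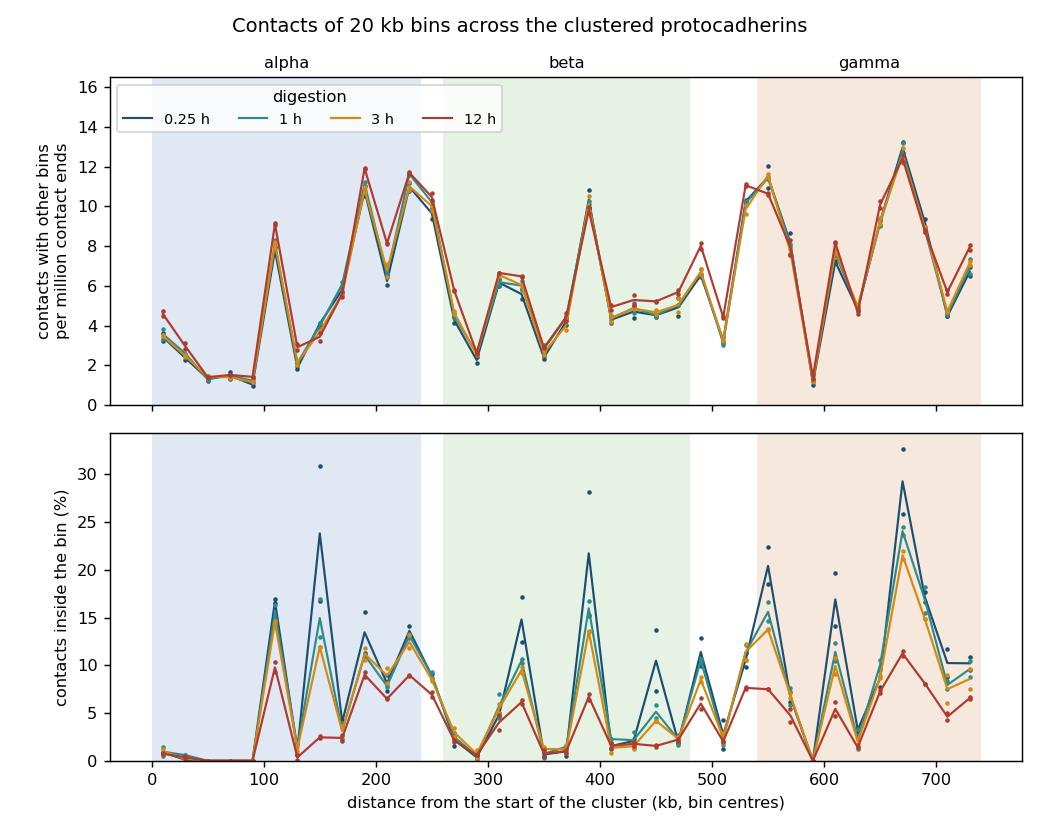
Contacts of each 20 kb bin with other bins per 1000000 contact ends (upper panel) and the share of a bin's contacts that join it to itself in percent (lower panel), by distance from the start of the cluster in kb. Lines are means of 2 libraries per digestion time and points are libraries. The upper lines nearly coincide, with 12 h highest in most bins, while in the lower panel the 12 h line lies lowest at the tall bins of alpha and gamma.

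The share of a bin's contacts that joined it to itself fell with digestion, as it did genome-wide. The median share over cluster bins was 6.12% and 7.18% at 0.25 h and 2.58% and 2.70% at 12 h, and over all bins it was 7.32% and 7.81%, and 4.27% and 4.20%. The log2 odds of a self-contact fell in 19 of 37 cluster bins and rose in 0, by limma, where 64.7% of all bins fell and 0.147% rose. One of the 19 was bin 5, which had no self-contact in any library, so that its difference follows depth and the pseudocount, and 18 of 33 bins with self-contacts fell. Gamma had 8 of 10 bins down, alpha 5 of 12 with bin 5 among them, and beta 3 of 11. The medians of the log2 differences were -0.69 in the cluster and -0.82 over all bins. Against 3 h, 16 cluster bins fell and 0 rose by 12 h, where 56.8% of all bins fell and 0.0991% rose.

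The largest fall in self-contact odds was in bin 8, with PCDHAC1. Its self-contact share was 16.8% and 30.9% in the 0.25 h libraries, 12.9% and 16.9% after 1 h, 12.0% and 11.9% after 3 h, and 2.58% and 2.34% after 12 h. The log2 difference in odds was -3.55 (SE 0.306, limma adjusted p = 3.32e-05). The PCDHGA1 bin had 18.5% and 22.4% at 0.25 h and 7.49% and 7.50% at 12 h (log2 difference -1.66, SE 0.145, limma adjusted p = 3.36e-05). The PCDHGC5 bin had 8.81% and 11.7%, and 4.98% and 4.25% (log2 difference -1.23, SE 0.229, limma adjusted p = 9.65e-04).

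The PCDHAC2 bin had 11.3% and 15.6%, and 9.28% and 8.73% (log2 difference -0.64, SE 0.173, limma adjusted p = 0.00882), a call lost without the second 12 h library (limma adjusted p = 0.0600). In the bins of PCDHA1, PCDHB1 and PCDHB15, where the share was between 0.472% and 3.44% in every library, the limma adjusted p was 0.626, 0.941 and 0.648. With few self-contacts there, from 2 to 43 per library, the precision there was low.

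By destination, 23.9% ± 1.66 of the contacts that touched the cluster at 0.25 h joined 2 of its bins, and 27.3% ± 0.649 at 12 h (mean ± SD, n = 2). Over the same times the part inside single bins went from 15.1% ± 2.38 to 7.22% ± 0.178. Leaving those out, the share that stayed in the cluster was 27.3% and 29.0% at 0.25 h and 28.8% and 29.9% at 12 h, which overlapped. Contacts with other chromosomes made up 13.2% ± 0.182 and 14.9% ± 0.230.

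On other chromosomes, the cluster's ratio of gene-rich to gene-poor partners was below the median window. The log2 ratio compared its contacts with 5 chromosomes known as gene-rich (16, 17, 19, 20 and 22) and with 3 known as gene-poor (4, 13 and 18). It is a ratio of contact totals, not scaled by the size of these chromosomes. Its average was -0.76, between -0.86 and -0.67 in 8 libraries. The median window had -0.37, and 28.6% of windows were lower. Between 0.25 h and 12 h the ratio differed by 0.09 (SE 0.0775, limma adjusted p = 0.412), where 29.5% of 3774 windows rose and 0.795% fell. Against 3 h it differed by 0.06 (limma adjusted p = 0.674), where 3.71% rose and 0.0265% fell.

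The windows most like the cluster in contacts inside the window, by root mean square difference in log2 ratio over 8 libraries, were on chromosome 11 (65.12 to 65.86 Mb, difference 0.0303), chromosome 3 (49.58 to 50.32 Mb, 0.0312) and chromosome 12 (52.54 to 53.28 Mb, 0.0316). Their mean ratios of observed over expected contacts were 1.42, 1.41 and 1.39.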

How the data were processed

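The authors deposited balanced Hi-C contact signal per pair of bins, in 20 kb bins for the second sequencing run and 50 kb bins for the first. Per the submitters' processing notes, HiC-Pro 2.11.1, Bowtie2 2.3.4.1 and hg19 were used. Balancing scales each bin to a common total, so a bin's own contact number is not visible in the deposited signal. One factor per bin was estimated from distant pairs, most of which hold 1 contact, and the deposited signal was divided by it. All 16 files then gave whole numbers, within 0.05, for 100% of values, and these are the contact numbers and depths.

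Contact rates, self-contact odds (pseudocount 0.5), insulation scores, observed over expected in windows of 740 kb, and pairs with a mean of at least 10 contacts were compared on the log2 scale with limma 3.58.1 in R 4.3.3 (lmFit, eBayes with a trend), over all features, with the 8 libraries of the second run in 1 fit and Benjamini-Hochberg adjustment at 0.05. Python 3.11.15 and numpy 2.4.6 did the rest. The steps were tested on simulated data. Windows with the same group layout tile chromosomes 1 to 22 and X.

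The members, lists, windows and motifs were chosen with earlier results of these data known. Named genes are the 6 listed ones; other bins are the extremes of a measure, pairs are the 5 with the highest mean log2 ratio, leaving out any pair that adjoins a higher one in both bins, and blocks and the profiles of bins 13 and 37 were chosen after values were seen. Replicate numbers were checked for pairing: for contact rates, deviations of same-numbered libraries correlated at 0.110 to 0.254 in all 6 pairs of times, and for no other measure did all 6 exceed 0.1. Gene expression and HindIII site numbers were not analysed here. Alternatives covered balancing, scaling, filters, pseudocounts, square size, thinned depth, the first run, the block and leaving out each library. Counting intervals cover counting error only.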

Additional observations from a re-analysis of the deposited data

How the results depend on the processing

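Of 146 values under alternatives other than leaving out a library, 128 were rated as unchanged in direction and side of the threshold. Some of the 146 are counts of calls, which have no direction. With the replicate block, or with only 0.25 h and 12 h fitted, log2 differences equal those of the main fit. Direction could not change in those settings, so the 128 do not measure how robust it is. Contact rates rose in 5 and fell in 0 of 15 bins in the 50 kb bins of the first run, where 17.04% and 10.7% of all bins did. The number of bins that fell, 2, became 5 with contacts inside the bin counted, where 20.05% of all bins fell. It became 5 with median-of-ratios size factors, where 28.1% of all bins fell, and 1 with only 0.25 h and 12 h fitted (19.04%). Leaving out 1 library gave 17 to 25 rises and 0 to 3 falls, where 25.6% to 35.4% of all bins rose and 14.5% to 20.6% fell. It also gave 14 to 22 bins with lower self-contact odds, where 54.3% to 63.7% of all bins fell. The first run gave 10 such bins of 15, where 65.8% of all bins fell. With the replicate block, where the numbers pair the libraries for contact rates only, 26 bins rose and 2 fell, against 37.5% and 22.9% of all bins. No count of calls over all 37 cluster bins moved by over 1.5 times with it. The beta bins that rose from 3 h to 12 h went from 3 to 5, where 24.2% of all bins rose without the block. Without balancing, 37 cluster bins had a higher insulation score at 12 h, where 26.4% of all bins rose and 18.2% fell, and the log2 differences became 0.2351 inside the cluster, 0.2741 for alpha with itself, 0.2601 for alpha with beta, 0.2525 for beta with itself, 0.1269 for beta with gamma, 0.1869 for gamma with itself, 0.09937 before and 0.1665 after the cluster. Among these differences, only beta with gamma and the stretch before the cluster did not pass the threshold. The others had limma adjusted p from 1.66e-05 to 0.0122, where 27.5% to 37.5% of all windows rose and 17.5% to 29.98% fell. With pairs at least 5 bins apart the difference inside the cluster was -0.01417. Leaving out 1 library moved alpha with itself between -0.02095 and 0.1623, beta with gamma between -0.1512 and 0.009953, the stretch after between -0.002497 and 0.03062, and the self-contact odds of PCDHB1 between -0.4757 and 0.4123. Those of PCDHB15 became -0.1091 with a pseudocount of 5. None of the values that changed sign had passed the threshold before, and the cause of these changes was not tested. Depth limits single pairs, which hold few contacts per library.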
